A study of Mus musculus with 68 samples.

Results

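Papillomas of agouti mice were compared with papillomas of white mice among FVBBX animals that carried 2 to 7 papillomas at 20 weeks of treatment, here called intermediate mice. Members were chosen by the papilloma count and by the coat label alone. This gave 19 of 37 mice and 35 of 68 papillomas, with 8 agouti mice (14 papillomas) and 11 white mice (21 papillomas). All mice were offspring of hybrids, SPRET/Ei X FVB/N, mated back to FVB/N, and were aged 8 to 12 weeks when the carcinogen DMBA was applied to the back skin, which was then promoted with TPA. A single Affymetrix mouse array was run per papilloma. The agouti group held 4 female and 4 male mice and the white group 6 female and 5 male mice. The same contrast in the 18 mice outside these limits (9 agouti and 9 white, 33 papillomas), called other mice, was used for comparison. They were of the resistant class (fewer than 2 papillomas) or the susceptible class (more than 7). Class was unevenly spread over coat there. Mouse 10 was the only resistant white mouse, while agouti mice were of both classes. Differences in other mice are adjusted for class unless said otherwise, and within the resistant class they rest on that white mouse.

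Tyr encodes tyrosinase, the enzyme that starts melanin synthesis, and FVB/N mice are albino because their Tyr allele is inactive. In a backcross to FVB/N a mouse with agouti fur therefore carries a SPRET/Ei allele at Tyr on chromosome 7, and a white mouse does not. Genes close to Tyr tend to be inherited with it, while genes far along the chromosome or on other chromosomes are passed on more freely. The model is limited to this marker, because genotypes at other loci were not analysed here and a group of mice alike at Tyr is mixed elsewhere.

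Tumor numbers were not shown to differ between the groups, but both groups were selected by the count at 20 weeks. The tests of these counts therefore cannot tell whether tumor number goes with coat. The agouti mice carried 3 to 5 papillomas at 20 weeks (median 3.5) and the white mice 2 to 7 (median 4), with means of 3.75 and 4.55 (exact permutation test, two-sided, p = 0.326). At 24 weeks the counts ran from 2 to 16 (median 4) in agouti mice and from 3 to 18 (median 5) in white mice (exact permutation p = 0.424). The first papilloma appeared after 10 to 18 weeks in both groups, with a median of 14 weeks in each. Start cohorts, named here by letter, were unevenly spread. Of 8 agouti mice 5 belonged to cohort F, against 3 of 11 white mice. No agouti mouse, against 3 white mice, had the origin label F1BSF2. The 5 squamous markers Krt5, Krt14, Krt6a, Krt1 and Krt10 lay between 13.03 and 14.81 on the log2 scale in every intermediate mouse. In 6 arrays of 4 intermediate mice (agouti mice 21 and 24, white mice 13 and 15), the X-linked transcript Xist or the Y-linked gene Eif2s3y went against the sex label, with high taken as above 8 and above 6. Xist and Eif2s3y were both high in papilloma 2 of mouse 13 (8.31 and 7.52) and of mouse 15 (10.03 and 8.70), and in mouse 21 (9.01 and 8.30). The papillomas of mouse 15 differed in Xist (6.61 and 10.03). Mouse 24, labeled male, had high Xist and low Eif2s3y in both papillomas. Whether these samples belong to the labeled mice, and so to the labeled coat, was not tested. Results were therefore also computed without these 4 mice.

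Values are deposited log2 RMA values, averaged over the papillomas of a mouse, so that n counts mice. Testing covered 20324 probesets of 12001 genes, each with a single gene symbol and a value above the mouse's median probeset in at least 8 of 19 mice. Differences are agouti minus white, tested with limma and adjusted by the Benjamini-Hochberg method at a threshold of 0.05. Replicates are different mice.

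Rab6a and Clns1a were lower and Neu3 was higher in agouti than in white papillomas, and these were the 3 probesets past the threshold, 0.0148% of those tested. All 3 genes lie on chromosome 7, on the telomeric side of Tyr. Counted in tested genes, Clns1a is number 28 from Tyr, Neu3 number 46 and Rab6a number 57. In total 1412 probesets (6.95%) had an unadjusted p below 0.05, of which 926 (4.56% of those tested) were higher and 486 (2.39%) were lower in agouti mice. The median difference over all tested probesets was 0.03, and 58.2% of them were higher in agouti mice.

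Promoters of the 3 genes are shown to identify the loci that passed. Each runs from 250 bases before to 50 after the annotated start in RefSeq (GRCm38.p6), at chr7:100607336-100607635 on the plus strand for Rab6a, chr7:97696407-97696706 on the plus strand for Clns1a and chr7:99828368-99828667 on the minus strand for Neu3. Capitals mark a match on either strand to the GC box, spelled GGGCGG, or to the other motif searched, the CCAAT box. The motifs do not overlap each other here. This is the reference sequence, and neither parental strain was read.
Rab6a: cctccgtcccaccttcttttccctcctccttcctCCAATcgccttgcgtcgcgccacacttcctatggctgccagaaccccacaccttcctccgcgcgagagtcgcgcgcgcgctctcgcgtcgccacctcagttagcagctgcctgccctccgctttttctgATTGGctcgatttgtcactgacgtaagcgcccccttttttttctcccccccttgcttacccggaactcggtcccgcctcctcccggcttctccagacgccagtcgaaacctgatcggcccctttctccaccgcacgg
Clns1a: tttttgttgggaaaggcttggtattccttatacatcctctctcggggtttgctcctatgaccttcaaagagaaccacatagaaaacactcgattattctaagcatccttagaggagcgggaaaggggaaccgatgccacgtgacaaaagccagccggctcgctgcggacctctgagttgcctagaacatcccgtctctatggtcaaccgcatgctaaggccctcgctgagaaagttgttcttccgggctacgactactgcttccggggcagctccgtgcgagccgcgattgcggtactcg
Neu3: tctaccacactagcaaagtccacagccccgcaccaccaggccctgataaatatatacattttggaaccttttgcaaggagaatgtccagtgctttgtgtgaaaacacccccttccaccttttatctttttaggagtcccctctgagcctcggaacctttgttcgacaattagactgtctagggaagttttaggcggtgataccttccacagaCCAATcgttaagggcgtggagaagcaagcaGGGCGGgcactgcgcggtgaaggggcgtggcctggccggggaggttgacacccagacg
The Rab6a window held 2 CCAAT boxes and 0 GC boxes, the Clns1a window 0 of both, and the Neu3 window 1 of each. Among 32851 promoters of this length 37.4% held a CCAAT box and 35.7% a GC box, so these matches describe the windows and set none of them apart.

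Rab6a encodes a small GTPase of the Golgi that directs retrograde transport. The probeset past the threshold measured 7.91 to 8.94 in agouti mice (median 8.49) and 9.12 to 9.57 in white mice (median 9.35). Every agouti mouse lay below every white mouse. The means were 8.46 ± 0.31 in agouti mice and 9.34 ± 0.14 in white mice (SD, n = 8 and 11), a difference of -0.88 (SE 0.10, limma adjusted p = 0.001016), or 54.2% of the white level. An exact permutation of coat over mice gave p = 1.32e-05, the smallest that 75582 splits allow. Over single papillomas the values ran from 7.24 to 8.94 in the 14 agouti arrays and from 8.83 to 9.65 in the 21 white arrays, where both papillomas of a mouse differed by a median of 0.29. Another Rab6a probeset measured 9.12 to 9.59 in agouti mice and 9.40 to 9.95 in white mice, a smaller difference of -0.31 (SE 0.07, adjusted p = 0.506). The remaining one, the brightest, was at 10.63 to 10.96 in agouti mice and 10.67 to 11.06 in white mice (difference -0.07, adjusted p = 0.842). The probesets called for Rab6a and Clns1a carry the suffix x, which marks probes that can also bind other transcripts, and a base difference under a probe can alter its signal. Probe sequences and strain alleles were not analysed here, so their part in the unequal differences of these probesets was not tested.

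Clns1a encodes a chloride conductance regulator that also takes part in assembling spliceosomal ribonucleoproteins. Its called probeset measured 11.28 to 11.57 in agouti mice (median 11.40) and 11.55 to 12.14 in white mice (median 11.91). The groups met at a single animal, white mouse 15 at 11.55, one of those with a doubtful sex label, and the other 10 white mice lay above the highest agouti mouse. The difference was -0.51 (SE 0.07, adjusted p = 0.00496, exact permutation p = 3.97e-05), so that agouti papillomas were at 70.2% of the white level. Without mouse 15 it was -0.55 (adjusted p = 0.000365). The call was lost with arrays as samples and mouse as a random block (-0.51, adjusted p = 0.161) and with the first papilloma of each mouse (-0.50, adjusted p = 0.772). Another pair of tested Clns1a probesets gave differences of 0.04 and 0.10 (adjusted p = 0.929 and 0.859), so the lower level was seen with a single probeset of the gene.

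Neu3 encodes a plasma membrane sialidase that removes sialic acid from gangliosides, and it was measured by a single probeset. Its value was 6.36 to 7.22 in agouti mice (median 6.77) and 5.39 to 6.39 in white mice (median 6.09). A single white mouse reached the agouti range. The difference was 0.79 (SE 0.13, adjusted p = 0.03431, exact permutation p = 2.65e-05), a 1.72-fold higher level. This call was the least firm. It was lost without any of 14 of the 19 single mice, where the difference stayed at 0.73 or more, and also once the 4 mice whose sex label was in doubt were removed (0.84, adjusted p = 0.172). With arrays as samples the adjusted p was 0.201, and with the first papilloma of each mouse 0.772.

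**Figure D1:**
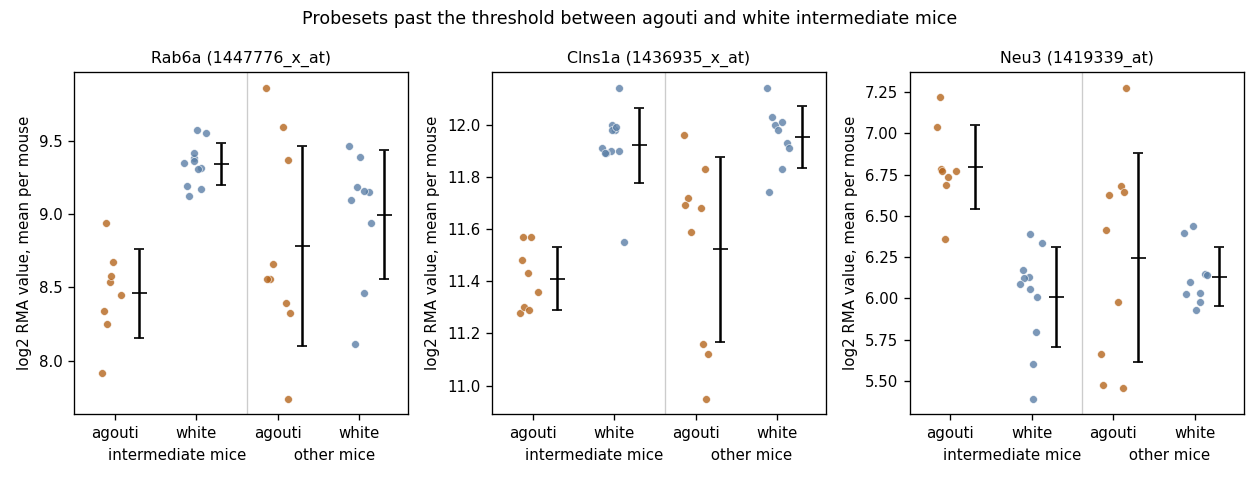
Log2 RMA values of Rab6a, Clns1a and Neu3, 1 point per mouse, with mean and SD (bars) for agouti and white intermediate mice (left) and agouti and white other mice (right). Points and bars are not adjusted for papilloma class. For Rab6a the agouti intermediate mice (7.91 to 8.94) lie below all white intermediate mice (9.12 to 9.57), whereas the agouti other mice are spread from 7.74 to 9.86.

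The differences were of like size within start cohort F and over the remaining cohorts pooled, which were not looked at singly. The calls were lost within cohort F and with cohort as a block. Within cohort F, with 5 agouti and 3 white mice, the difference was -0.92 for Rab6a, -0.60 for Clns1a and 0.74 for Neu3. Among the remaining 3 agouti and 8 white mice it was -0.79, -0.48 and 0.75 for the same genes. With the cohort as a block the adjusted p was 0.0534 for Rab6a, 0.0536 for Clns1a and 0.462 for Neu3. Of 13 cages 3 held both coats, with 4 agouti and 3 white mice. The agouti minus white difference in these cages was -1.11, -1.44 and -0.44 for Rab6a, -0.18, -0.63 and -0.64 for Clns1a, and 0.44, 0.95 and 0.78 for Neu3. Each gene thus kept its direction in all 3 cages, while a fit with cage as a block, which leaves 5 residual degrees of freedom, called none of them (adjusted p = 0.736 each).

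Beyond these 3, genes were ranked by p, each by its probeset of smallest p. Over the 30 ranked genes, the called ones included, 24 had further tested probesets, 44 in all. Of these 25 had the sign of the ranked probeset and 19 the opposite sign, and 10, from 7 genes, had that sign with an unadjusted p below 0.05. The ranked values below are therefore of single probesets.

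Dnajb14, a J-domain cochaperone encoded on chromosome 3, led this ranking. Its probeset measured 5.41 to 6.33 in agouti mice (median 6.04) and 5.09 to 5.63 in white mice (median 5.40), with a difference of 0.56 (SE 0.11, adjusted p = 0.193), whereas a dimmer Dnajb14 probeset gave -0.09 (adjusted p = 0.931). Fam168a, 2 tested genes beyond Rab6a on chromosome 7, had a difference of 0.40 (SE 0.08, adjusted p = 0.193), but its brighter probeset averaged 7.81 in agouti mice and 7.87 in white mice (-0.06, adjusted p = 0.901). The ranked probesets of both genes passed the threshold when agouti mouse 25 was left out (adjusted p = 0.0142 each), which raised the number of calls to 5. Nars2, the mitochondrial asparaginyl-tRNA synthetase, is number 19 from Tyr and measured 7.11 to 7.66 in agouti mice and 7.60 to 8.04 in white mice (difference -0.42, adjusted p = 0.310). Sephs2, which makes the selenium donor for selenoproteins, lies farther out at number 239 and measured 8.36 to 9.12 in agouti mice and 8.64 to 9.68 in white mice (difference -0.58, adjusted p = 0.354). Another pair of Sephs2 probesets gave -0.14 and -0.10 (adjusted p = 0.778 and 0.877). Rala, a small GTPase downstream of Ras, was at 7.13 to 7.57 in agouti mice and 6.69 to 7.27 in white mice (difference 0.38, adjusted p = 0.354). The brightest Rala probeset averaged 9.71 in agouti mice and 9.72 in white mice (adjusted p = 0.993). Galc, a lysosomal galactosylceramidase, and C87436 differed by 0.41 and 0.51 (adjusted p = 0.423 each). Galc passed the filter with the minimum of 8 mice above their median, 6 agouti and 2 white, so that it passed mainly through agouti mice. Once the 4 mice with a doubtful sex label were removed the probesets of Sephs2 and Galc passed the threshold (adjusted p = 0.00878 and 0.0336). For Galc those 4 mice held the lowest values among agouti mice, 5.11 and 5.22, and the highest among white mice, 5.27 and 5.28.

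Further genes ranked by p did not pass the test, with adjusted p between 0.423 and 0.616. Their differences were positive for Ankle2 (0.43), the transcription factor Atf2 (0.57), the cyclin Ccni (0.57), the heparan sulfate sulfotransferase Hs2st1 (0.42), the chaperone Clu (0.46) and the kinase Mapk8 (0.46). The 4 tested Clu probesets ran from 0.44 to 0.54, while the brightest Mapk8 probeset gave -0.14 (adjusted p = 0.804). Negative differences were seen for the transcription factor Ets1 (-0.49), the squalene synthase Fdft1 (-0.62), the polymerase subunit Polr3a (-0.49), the CREB coactivator Crtc3 (-0.30) and the microtubule protein Map6 (-0.44). The brightest probesets of Ets1 and Fdft1 gave 0.05 and 0.06 (adjusted p = 0.954 and 0.944). Brighter probesets of Ankle2, Polr3a and Crtc3 gave -0.08, 0.02 and 0.006 (adjusted p = 0.850, 0.977 and 0.996), and a dimmer one of Ankle2 gave 0.32. Further tested probesets of Atf2, Ccni, Hs2st1 and Map6 kept the sign. The groups failed to overlap for 2 probesets, 0.00984% of those tested. Besides Rab6a this was a probeset of Rabgap1 on chromosome 2, a GTPase activator for Rab proteins, at 8.55 to 8.80 in agouti mice and 8.34 to 8.54 in white mice. Its difference was small at 0.18 and did not pass the test over all probesets. Dimmer Rabgap1 probesets overlapped between the groups, with differences of -0.02 and 0.22 (adjusted p = 0.958 and 0.858).

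Chromosome 7 carried the calls, and within it the differences gathered around Tyr. At an unadjusted p below 0.001 there were 30 probesets (0.148% of those tested), and 13 of them, from 12 genes, lay among the 1415 probesets of chromosome 7 (0.919%). Elsewhere 17 of 18909 probesets did so (0.0899%). Of the 13 probesets 7 were higher and 6 lower in agouti mice, and 11 lay within 100 tested genes of Tyr. Those not named so far were Trim12c (0.76) and Trim21 (0.44) of the tripartite motif family, the peptidase Prcp (0.61), Gatd1 (0.35), 3110040N11Rik (0.49) and 4632427E13Rik (-0.53).

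At a p below 0.05 the share along chromosome 7 was uneven. It was 25.3% of 83 probesets in the 50 tested genes before Tyr, 21.9% of 96 in the first 50 after it and 28.9% of 83 in the next 50. Farther toward the telomere the blocks of 50 genes held 9.88% to 15.6%. From 51 to 517 genes on the centromere side the blocks held 0% to 6.06%, close to or below the 6.95% over all probesets. For the whole chromosome the share was 10.8%, which was not particular to it, because chromosomes 5 and 14 had 11.8% and 10.6%. Probesets of chromosome 7 were mostly lower in agouti mice (109 lower and 44 higher at p below 0.05), while chromosome 5 had 39 lower and 115 higher. Averaged over all tested probesets of chromosome 7 and set against the rest, the level was 0.04 ± 0.07 in agouti mice and 0.12 ± 0.07 in white mice (SD, n = 8 and 11, exact permutation p = 0.0296). Over the 179 probesets within 50 genes of Tyr the same quantity was -0.20 ± 0.05 in agouti mice and -0.15 ± 0.04 in white mice (exact permutation p = 0.0156). DNA copy number was not analysed here, and the part of allele, copy number and probe binding in these values cannot be told apart.

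**Figure D2:**
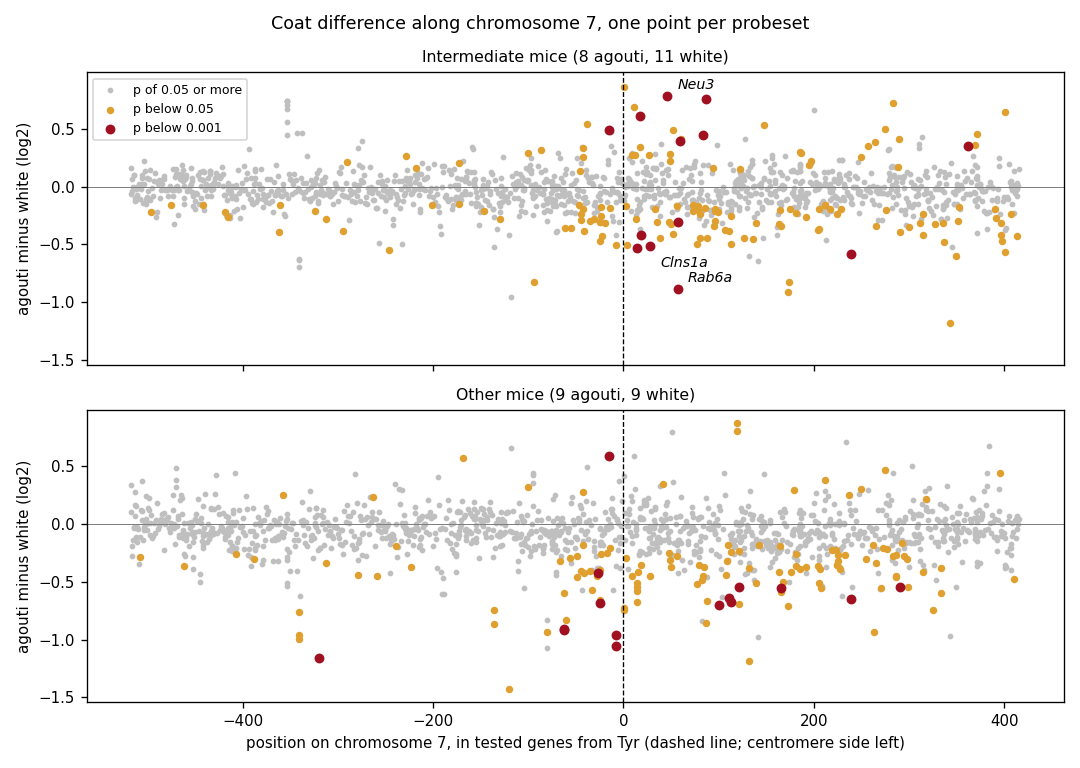
Agouti minus white difference (log2, vertical axis) of each tested probeset on chromosome 7 against its place in tested genes from Tyr (horizontal axis), in intermediate mice (top) and other mice (bottom), colored by unadjusted p. Of the 13 probesets below 0.001 in intermediate mice 11 lie within 100 genes of Tyr.

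**Figure D3:**
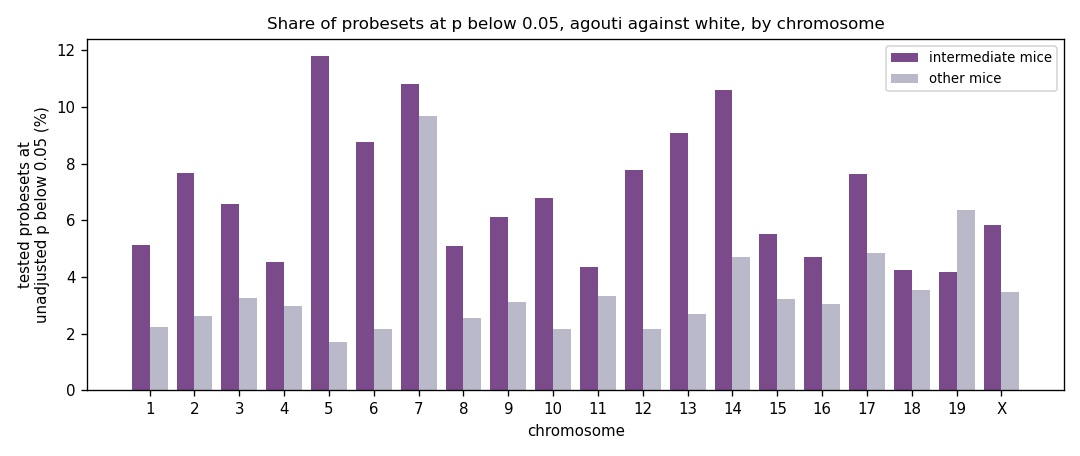
Share of tested probesets (percent) with an unadjusted p below 0.05 between agouti and white mice on each chromosome, for intermediate mice and other mice. Chromosomes 5, 7 and 14 stand at 11.8%, 10.8% and 10.6% in intermediate mice, and chromosome 7 is at 9.68% in other mice.

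Tyr itself could not be used as a check on the coat label. None of its 3 probesets passed the filter, and the brightest lay above the median in 6 of 19 mice, at 4.09 to 6.10 in agouti mice and 4.12 to 7.46 in white mice. The 20 tested genes nearest to Tyr, 10 on each side, had 35 tested probesets with differences between -0.51 and 0.87. None was past the threshold, and 5 (14.3%, against 6.95% over all probesets) had an unadjusted p below 0.05, each from another gene. With only the brightest probeset of each gene, 1 of 20 did so, and the differences ran from -0.31 to 0.30. The first gene on the telomeric side is Ctsc, cathepsin C, a lysosomal protease that activates granzymes and neutrophil proteases. Its weakest probeset measured 4.77 to 6.88 in agouti mice (median 5.92) and 4.01 to 5.89 in white mice (median 5.19), a difference of 0.86 (SE 0.25, adjusted p = 0.616). The brightest Ctsc probeset was at 11.67 to 12.82 in agouti mice and 11.59 to 13.22 in white mice (difference -0.09, adjusted p = 0.936). In their probesets of smallest p Fzd4, a Wnt and Norrin receptor, differed by -0.51, the lipid transfer gene Stard5 by -0.50, Tmem135 by -0.17 and Crebzf by 0.27 (adjusted p between 0.655 and 0.706). The brightest probesets gave 0.03 for Fzd4, -0.14 for Stard5 and 0.21 for Crebzf. Rab38, a melanosome transport GTPase next to Ctsc, differed by -0.08 (adjusted p = 0.886).

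No pigment gene passed the test, as for all but 0.0148% of the tested probesets. Of 15 genes for pigment synthesis and the melanosome 9 were tested and 0 were called. A p below 0.05 was reached by 0 in either direction, against 6.95% over all probesets. Of the 9 genes 6 were higher, against 58.2% over all probesets, and the median difference was 0.20 against 0.03. Dct, which acts after tyrosinase, averaged 7.70 in agouti mice and 7.28 in white mice (difference 0.43, adjusted p = 0.862). Tyrp1, another enzyme of the pathway, averaged 7.13 in agouti mice and 6.74 in white mice (0.39, adjusted p = 0.889). The melanosome fibril protein Pmel differed by 0.20 (adjusted p = 0.916). In the melanocyte lineage list 7 of 9 genes were tested with 0 called, 4 being higher and 3 lower (median 0.23). At its ends stood the receptor Kit with a difference of 0.43 (adjusted p = 0.759) and the transcription factor Sox10 with -0.185 (adjusted p = 0.816), and the transcription factor Mitf differed by 0.40 (adjusted p = 0.778).

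The mice outside the limits of 2 to 7 papillomas also had more differences on chromosome 7 than elsewhere. Shares were highest there from 50 genes before Tyr to 300 genes after it. No probeset passed the threshold there (0%), and 715 (3.52%) had an unadjusted p below 0.05, against 9.68% of the probesets of chromosome 7. In the 3 blocks around Tyr named above the shares were 22.9%, 15.6% and 10.8%, and in the next 4 blocks toward the telomere they were 16.9%, 13.8%, 18.6% and 24.3%. The share 251 to 300 genes from Tyr (17 of 70 probesets) was thus about as high as in the 50 genes just before Tyr (19 of 83). In all remaining blocks of chromosome 7 it was 1.33% to 8.99%. Of the 13 chromosome 7 probesets with p below 0.001 in intermediate mice 11 had the same sign in other mice, 5 of them with p below 0.05. Of the 17 on other chromosomes 10 had the same sign and 0 reached that level. Taken from the opposite side, 15 chromosome 7 probesets had p below 0.001 in other mice, and 14 of them kept their sign in intermediate mice, 8 with p below 0.05. Over all tested probesets 48.9% had the same sign in both sets of mice, which share no animal.

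Single genes differed in how far they carried over. Clns1a was -0.45 (SE 0.14, unadjusted p = 0.00545), Nars2 -0.35 (p = 0.00265), Sephs2 -0.65 (p = 0.000348) and 3110040N11Rik 0.59 (p = 0.000187) in other mice. The other Sephs2 probesets gave -0.17 (p = 0.0785) and 0.08 (p = 0.555) there. Rab6a was -0.43 (SE 0.27, p = 0.138). Its values there, not adjusted for class, ran from 7.74 to 9.86 in agouti mice (median 8.56, mean 8.79). In white mice they ran from 8.11 to 9.47 (median 9.15, mean 9.00), so the means lay closer than the adjusted difference. Of the 9 other agouti mice 3, all of the resistant class, lay at 9.37 or above, within or above the range of white intermediate mice, and of the 9 other white mice 2, both susceptible, lay at or below the highest agouti intermediate mouse. Neu3 was 0.19 (p = 0.429), with 5.46 to 7.28 in agouti mice and 5.93 to 6.44 in white mice. The difference between both sets was tested directly and passed for 0 probesets (0%), with 996 (4.9%) at an unadjusted p below 0.05. It was -0.46 for Rab6a (SE 0.28, adjusted p = 0.893), -0.06 for Clns1a (SE 0.15, adjusted p = 0.961) and 0.59 for Neu3 (SE 0.26, adjusted p = 0.893). Stard5 differed by -0.50 in intermediate mice and by -1.05 in other mice (unadjusted p = 1.88e-05).

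Away from chromosome 7 larger differences were seen that did not pass the test. Plau encodes urokinase, a protease of matrix breakdown and invasion. Its brighter probeset measured 8.44 to 10.10 in agouti mice (median 8.81) and 5.25 to 9.21 in white mice (median 6.44). The agouti mice were uniformly high, whereas 8 of 11 white mice lay below all of them and 3 within their range. The difference was 1.76 (SE 0.52, adjusted p = 0.616), a 3.39-fold higher mean, and the dimmer probeset gave 1.23 (adjusted p = 0.626). In other mice the brighter probeset differed by 1.13 after adjustment for class (limma unadjusted p = 0.149). Its means there, not adjusted for class, were 7.83 in agouti mice and 6.05 in white mice.

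Gzme encodes a granzyme, a serine protease of cytotoxic granules. Its tested probeset, which may also bind related granzymes, measured 4.67 to 6.95 in agouti mice (median 5.73) and 3.44 to 6.26 in white mice (median 3.96). The agouti mice were shifted upward, with 7 of 11 white mice below all of them. Signal was weak, since the agouti mice lay near the array median of 5.18 to 5.29 and most white mice lay below it. The probeset passed the filter with the minimum of 8 mice, 6 agouti and 2 white, so that it passed mainly through agouti mice. The difference was 1.42 (SE 0.38, adjusted p = 0.579) here and 1.10 (unadjusted p = 0.0238) in other mice after adjustment for class. The means of other mice, not adjusted for class, were 6.27 in agouti mice and 4.06 in white mice. Of the cytotoxic granule list 3 of 12 genes were tested and 0 called. Klrd1, a receptor of natural killer cells, differed by 0.49 (adjusted p = 0.697) and the pore protein Prf1 by close to 0 (adjusted p = 0.9999). The Klrd1 probeset also passed the filter with the minimum of 8 mice. Its medians were 5.52 in agouti mice and 5.03 in white mice, near the array median.

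Scnn1g and Scnn1b encode subunits of the epithelial sodium channel and lie on chromosome 7, Scnn1g as number 173 from Tyr. Scnn1g measured 5.92 to 7.56 in agouti mice (median 6.65) and 6.43 to 8.52 in white mice (median 7.60), a difference of -0.91 (SE 0.24, adjusted p = 0.579). Scnn1b measured 5.66 to 7.14 in agouti mice (median 6.64) and 6.05 to 8.01 in white mice (median 7.28), a difference of -0.82 (SE 0.23, adjusted p = 0.616). Both were lower on average in agouti mice, with overlapping groups. Scnn1a, which encodes another subunit of the channel and lies on chromosome 6, averaged 8.06 in agouti mice and 8.05 in white mice (difference 0.005, adjusted p = 0.999). In other mice Scnn1g was -0.71 (unadjusted p = 0.012).

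**Figure D4:**
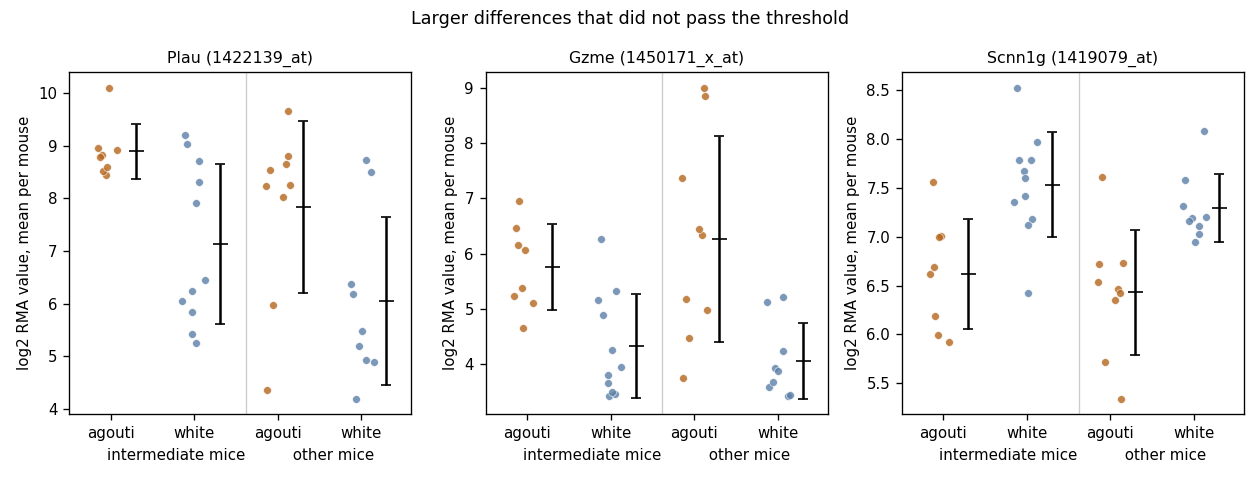
Log2 RMA values of Plau, Gzme and Scnn1g, 1 point per mouse, with mean and SD (bars) for agouti and white intermediate mice (left) and agouti and white other mice (right). Points and bars are not adjusted for papilloma class. The agouti intermediate mice lie at 8.44 or higher for Plau, while the white mice spread from 5.25 to 9.21, and all groups overlap.

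No gene list had a member past the threshold, which only 0.0148% of all tested probesets passed. The counts of direction below stand against 58.2% of all tested probesets being higher in agouti mice. Among tumor cell lists, 16 of 19 tested genes of simple keratins and invasion were higher in agouti mice, with a median of 0.27 and a single gene, Plau, at p below 0.05. Krt8, a simple keratin that appears in progressing tumors, averaged 7.43 in agouti mice and 6.32 in white mice (difference 1.11, adjusted p = 0.729). For mitosis 18 of 24 were higher (median 0.08), led by the checkpoint kinase Bub1b (0.28) and the spindle protein Nusap1 (0.24). Hyperplastic epidermis had 11 of 13 lower (median -0.11), led by the stress keratin Krt17 (-0.50, adjusted p = 0.697). Basal epidermis had 8 of 11 lower (median -0.05) and the cornified layer 19 of 27 higher (median 0.19). In other mice the medians were 0.003 for simple keratins and invasion, -0.25 for mitosis and -0.105 for the cornified layer. Hyperplastic and basal epidermis kept their sign there (-0.13 and -0.29). Krt8, Bub1b and Nusap1 turned to -0.28, -0.24 and -0.13 in other mice, while Krt17 stayed negative (-0.31). The EGF receptor ligand Hbegf, from the Ras and ERK feedback list, differed by -0.52 (adjusted p = 0.706).

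Lists for other cell types had 0 members past the threshold (0.0148% over all probesets), and their part in the differences above was not tested. Over all probesets 58.2% were higher in agouti mice. In bulk papillomas fewer cells of a type and less RNA per cell cannot be told apart. The neutrophil list, which mixes marker genes with chemokines and is no measure of cell number, was lower in 10 of 10 (median -0.31). Its only member with p below 0.05 was the chemokine Cxcl1 (-0.27). The mean level of the listed genes was 8.13 to 9.26 in agouti mice and 8.37 to 9.68 in white mice. Among them Csf3r, the receptor for granulocyte colony-stimulating factor, differed by -0.44 (adjusted p = 0.778) and the granule gene Ngp by -0.82 (adjusted p = 0.783). Fibroblast genes were higher in 10 of 11 (median 0.33, 2 at p below 0.05), at 9.73 to 11.38 in agouti mice and 9.64 to 11.06 in white mice. The matrix genes Lum and Col1a1 differed by 0.71 and 0.47 (adjusted p = 0.715 each). Macrophage and dendritic cell genes were higher in 12 of 16 (median 0.21) and T cell genes lower in 4 of 6 (median -0.08). Striated muscle genes were lower in 10 of 11 (median -0.08) and fat cell genes higher in 3 of 5 (median 0.22). In other mice the medians had the opposite sign for macrophage and dendritic cell genes (-0.28) and striated muscle genes (0.58). They kept their sign for neutrophil (-0.12), fibroblast (0.13), T cell (-0.09) and fat cell genes (0.37).

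Hair genes varied widely from mouse to mouse. Inner root sheath keratins were higher in 6 of 7 (median 0.27 in intermediate mice, -0.65 in other mice), with Krt25 averaging 8.54 in agouti mice and 7.21 in white mice (adjusted p = 0.837). Hair shaft keratins were higher in 4 and lower in 6 of 10 (median -0.105). Keratin-associated proteins were higher in 4 and lower in 4 of 8 (median 0.021), from -0.15 to 1.67, where the highest was Krtap8-1 (adjusted p = 0.801). For the imprinted genes of chromosome 7, 13 of 17 were lower (median -0.09), and 2 of the 17 were lower with p below 0.05. Of all 933 tested genes of the chromosome 60.0% were lower (median -0.032), and 5.68% of the 933 were lower with p below 0.05. Among the imprinted genes were Slc22a18 (-0.32, adjusted p = 0.616) and the growth regulator Phlda2 (-0.47, adjusted p = 0.706).

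**Figure D5:**
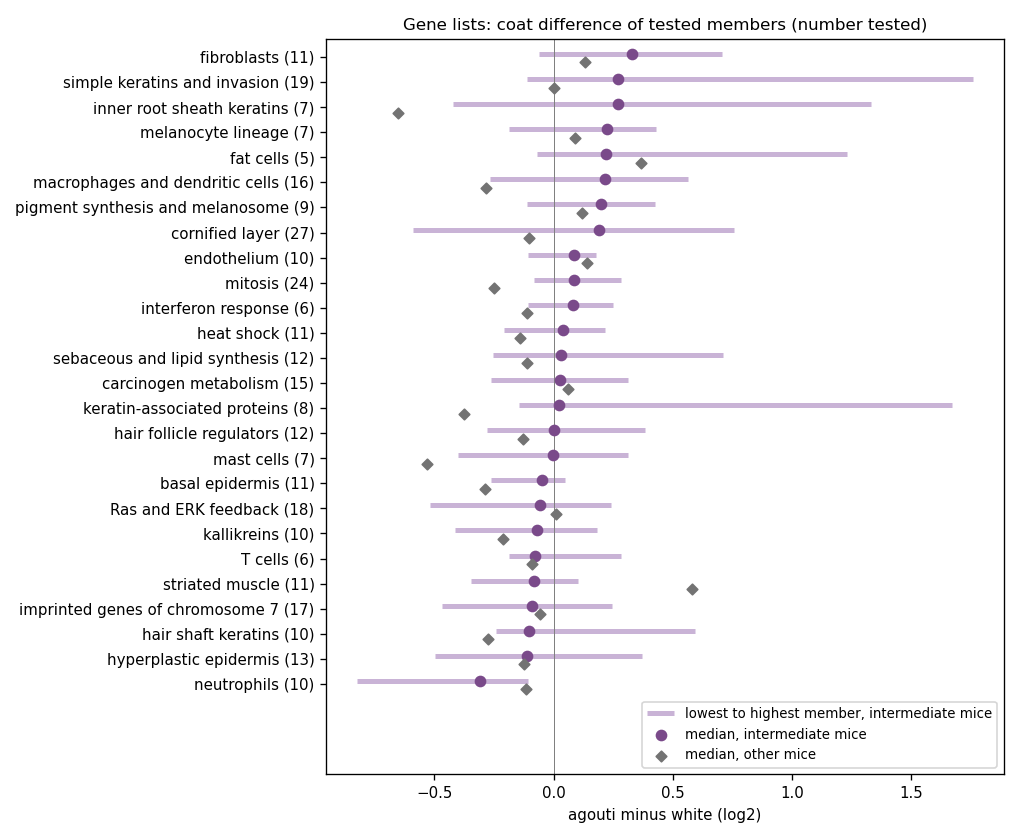
Agouti minus white difference (log2, horizontal axis) for gene lists with at least 5 tested members. Circles give the median in intermediate mice, bars the lowest and highest member and diamonds the median in other mice. The neutrophil list, chemokines included, is lowest (median -0.31, 10 of 10 lower) and the fibroblast list highest (median 0.33, 10 of 11 higher). In any list 0 members are past the threshold, against 0.0148% of all tested probesets.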

How the data were processed

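RNA of 68 papillomas was measured on Affymetrix mouse arrays. The authors deposited log2 values per probeset made by RMA, which corrects background, normalizes by quantiles and summarizes probes. The RMA version was not given in the sources used here. Array medians lay between 5.18 and 5.29, and the number of mice limits the precision.

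Of 45101 probesets 34945 carried 1 gene symbol, 932 several, 9160 none, and 64 were controls. Symbols, chromosomes and gene order came from the platform annotation and a RefSeq table (GRCm38.p6). Log2 values were averaged per mouse and compared by coat with limma 3.58.1 in R 4.3.3. Other mice were fitted with papilloma class as a covariate, and the difference between both sets as an interaction over 37 mice. Lists took 1 probeset per gene, that of highest mean. Single values were compared by exact permutation, two-sided. The fit was tested on simulated data. Named genes were up to 15 in each direction by size past the threshold and then by p, the 10 nearest Tyr on each side, and members of largest difference per list. Members and lists were chosen with earlier results of these data known. Rabgap1, Scnn1b, further chromosome 7 genes with p below 0.001 and further probesets of named genes were named after their values were seen. Alternatives covered filter, covariates, cage, arrays as samples, variance model, scaling and leaving out each mouse. Figures used matplotlib 3.10.9.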

Additional observations from a re-analysis of the deposited data

Results flagged for a closer look

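Among 63 results looked at in the 8 agouti intermediate mice, 6 had a single mouse far from the others, judged by a ratio of gap to range above Dixon's critical value. Chance alone marks about 1 in 20 groups of this size. For Plau mouse 8 stood at 10.10, with the next mouse at 8.96. For Lrig2 mouse 20 stood at 6.90 and the next at 6.56. For Crtc3 mouse 23 was at 5.98 and the next at 5.77. On the low side, Mapk8 was at 4.95 in mouse 21, one of the mice with a doubtful sex label, against 5.28 in the next mouse, and the melanocyte gene Mlana was at 5.36 in mouse 14 against 6.32. The papilloma number at 24 weeks was 16 in mouse 24, another mouse with a doubtful sex label, and 7 in the next mouse. Their causes were not tested.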

How the results depend on the processing

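Of 61 single probesets followed through the alternatives 58 kept their direction throughout. Crebzf turned to -0.050 within start cohort F, and Csf3r to 0.29 and the chemokine gene Cxcl5 to 0.56 with cage as a block. The count of 3 calls, all on chromosome 7, fell to 1 (Rab6a) with arrays as samples and mouse as a random block (consensus correlation 0.466), and to 1 (Rab6a) with the first papilloma of each mouse. It was 0 with start cohort as a block, with 739 probesets at an unadjusted p below 0.05, 0 within start cohort F, with 585, and 0, also on chromosome 7, with cage as a block, with 1138. These fits have fewer residual degrees of freedom. With cage as a random block the same 3 were called. Both cage fits were added after seeing the data. In the other alternatives it was 2 to 4. Leaving out 1 mouse at a time gave 2 to 5 calls, 2 to 4 of them on chromosome 7, and the 5 came without agouti mouse 25. Rab6a stayed at -0.95 to -0.80 without single mice (adjusted p 0.000122 to 0.00485) and Clns1a at -0.55 to -0.49 (adjusted p 0.000365 to 0.0224), while Neu3 stayed at 0.72 to 0.85 (adjusted p 0.0131 to 0.132). Without a filter Trim34a was also called. In other mice the 0 calls became 5 without the class covariate, an alternative added after seeing the data, as was leaving out the 4 mice with a doubtful sex label (4 calls, 2 of them shared). The difference between both sets gave 0 calls under every alternative run. By replicate number, no paired analysis was possible because these are mouse numbers, which pair no mice across coats. Signal over background is low for probesets close to the array median.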
